A study of Homo sapiens with 6 samples.

Results

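The p53 target genes examined here are 10 genes with an established p53-dependent transcription, namely CDKN1A, MDM2, GDF15, SESN1, BTG2, TP53I3, RRM2B, ZMAT3, FDXR and TP53INP1. They were taken by gene name from the 47432 genes listed for each library, and all 10 had enough reads to be tested. Their expression was compared between cultures of LOX-IMVI, a human melanoma cell line, that had received a lentiviral pLKO.1 control vector (shCtrl) or a pLKO.1 vector for a short hairpin RNA (shRNA) against NFKBIZ (shNFKBIZ). NFKBIZ encodes the nuclear NF-κB cofactor IκBζ. Both groups were selected with puromycin, and 3 libraries were sequenced per group. One hairpin was used, so that effects of the knockdown of the cofactor and other effects of that hairpin cannot be told apart here. The study describes each condition as independent experiments, and the labels do not say more on what separates the libraries of a group.

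p53 is a transcription factor that is held at low levels by the ubiquitin ligase MDM2 and accumulates after DNA damage, oncogene activity or other stress. It then binds response elements made of paired decamers near its target genes, which act in cell cycle arrest, DNA repair, redox control, survival and the feedback on p53 itself. Several of these genes also respond to other regulators in the absence of p53 activation. Much of the control of p53 lies in protein stability, which RNA reads do not measure.

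NFKBIZ, the gene targeted by the hairpin, had 65.99, 68.7 and 76.1 CPM in the shCtrl libraries and 20.7, 20.6 and 20.1 CPM in the shNFKBIZ libraries, so that the groups did not overlap (log2 fold change -1.78, SE 0.0581, adjusted P 7.20e-17). NFKBIZ overlaps NXPE3 on the same strand, which held 1.22 times as many gene reads and had a log2 fold change of -0.19. The part of this overlap in the NFKBIZ value was not tested. CPM are exon read counts relative to the library total after scaling with TMM factors, and adjusted P values come from the quasi-likelihood test of edgeR over all genes tested. The libraries held 22264473 to 24624839 exon reads, and no pair of replicates agreed within sampling noise. Of all 13843 genes tested, 4496 were called higher and 4543 lower, and 5659 and 3651 with library size alone in place of TMM factors, which moved the median log2 fold change from 0.0043 to 0.094. The counts are therefore given beside the share of all genes tested. Of the melanocyte markers looked up, SOX10 and MLANA had 0 exon reads in every library, and 4 of 6 had fewer than 25 exon reads over the 6 libraries. The summed level of the 6 melanocyte markers was 5.94 to 7.73 CPM in shCtrl and 3.35 to 4.32 CPM in shNFKBIZ. That of 6 markers of dedifferentiated melanoma cells was 1336 to 1424 CPM in shCtrl and 1647 to 1674 CPM in shNFKBIZ. Of the 5 tested, 4 were called higher and 1 lower, against 32.5% and 32.8% of all genes tested. Their log2 fold changes ranged from -1.20 to 1.69, with 1 past 2-fold in each direction (3.84% higher and 5.12% lower of all genes). The part of both lists in the results was not tested. These are bulk samples, in which fewer cells of a kind and less RNA per cell cannot be told apart.

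Matches to the p53 response element near the starts of the target genes are shown first, because this is the kind of sequence that p53 binds. The element was searched as a pair of decamers of the p53 consensus with no spacer, with the C at position 4 and the G at position 7 of each decamer fixed and at most 3 mismatches over the 20 bases. The consensus reads the same on both strands. RefSeq promoter windows of 300 bases (250 before and 50 after each start, GRCh38.p14) were present for 8 of the 10 genes, and 4 of these held a match. Over all genes with a window the share with a match was 1.37%, and over all 35116 windows it was 1.12%. Capitals mark the matched pair of decamers, and each sequence is given 5′ to 3′ on the strand of its gene.
MDM2 (chr12:68808918-68808947, plus strand): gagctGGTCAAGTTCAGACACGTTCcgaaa
SESN1 (chr6:109009013-109009042, minus strand): cgtctGGACAAGTCTCCACAAGTCAgaaat
FDXR (chr17:74872991-74873020, minus strand): ggcccGGGCAGGAGCGGGCTTGCCCtgcgg
GDF15 (chr19:18386181-18386207, plus strand): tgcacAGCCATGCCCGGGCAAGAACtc

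The MDM2 match had 2 mismatches and lay 94 to 75 bases before one RefSeq start and 101 to 82 bases before another, in an intron of 6 of the 36 transcripts that GENCODE release 44 lists for the gene and in an exon of none. That of SESN1 had 3 mismatches and lay 49 to 30 bases before a RefSeq start, in an intron of 2 of 7 transcripts. The FDXR match, also with 3 mismatches, lay 21 to 2 bases before one of the RefSeq starts. It overlapped an exon of 4 of 20 GENCODE transcripts, without touching coding sequence. In GDF15 the match lay 29 to 48 bases after the start. It overlapped, at least in part, an exon of 3 of 5 transcripts and the coding sequence of these 3. No match to these letters was found in the windows of CDKN1A, BTG2, TP53I3 and ZMAT3, which says only that they are not in those windows. RRM2B and TP53INP1 had no window. A match is a description of the sequence, and binding of p53 was not measured in these libraries.

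Most of the 10 genes were higher in shNFKBIZ cells, all of these but BTG2 by less than 2-fold. BTG2, FDXR, SESN1, ZMAT3, TP53I3 and MDM2 rose by 1.21-fold (MDM2) to 2.09-fold (BTG2), RRM2B fell by 1.38-fold, and CDKN1A, GDF15 and TP53INP1 did not pass the test at an adjusted P of at most 0.05. Thus 6 of 10 were called higher, where the background of all genes tested was 32.5%, and 1 of 10 was called lower, against a background of 32.8%. With a change of at least 2-fold as a further requirement, 1 gene, BTG2, remained higher (background 3.84%) and 0 were lower (background 5.12%), the lowest log2 fold change being -0.47 for RRM2B. The median log2 fold change was 0.37 for the 10 genes and 0.0043 for all genes tested. The CPM ranges of the groups were separate for 8 of the 10 genes, 6 of them higher and 2 lower, and such a separation was found for 68.7% of all genes tested.

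**Figure D1:**
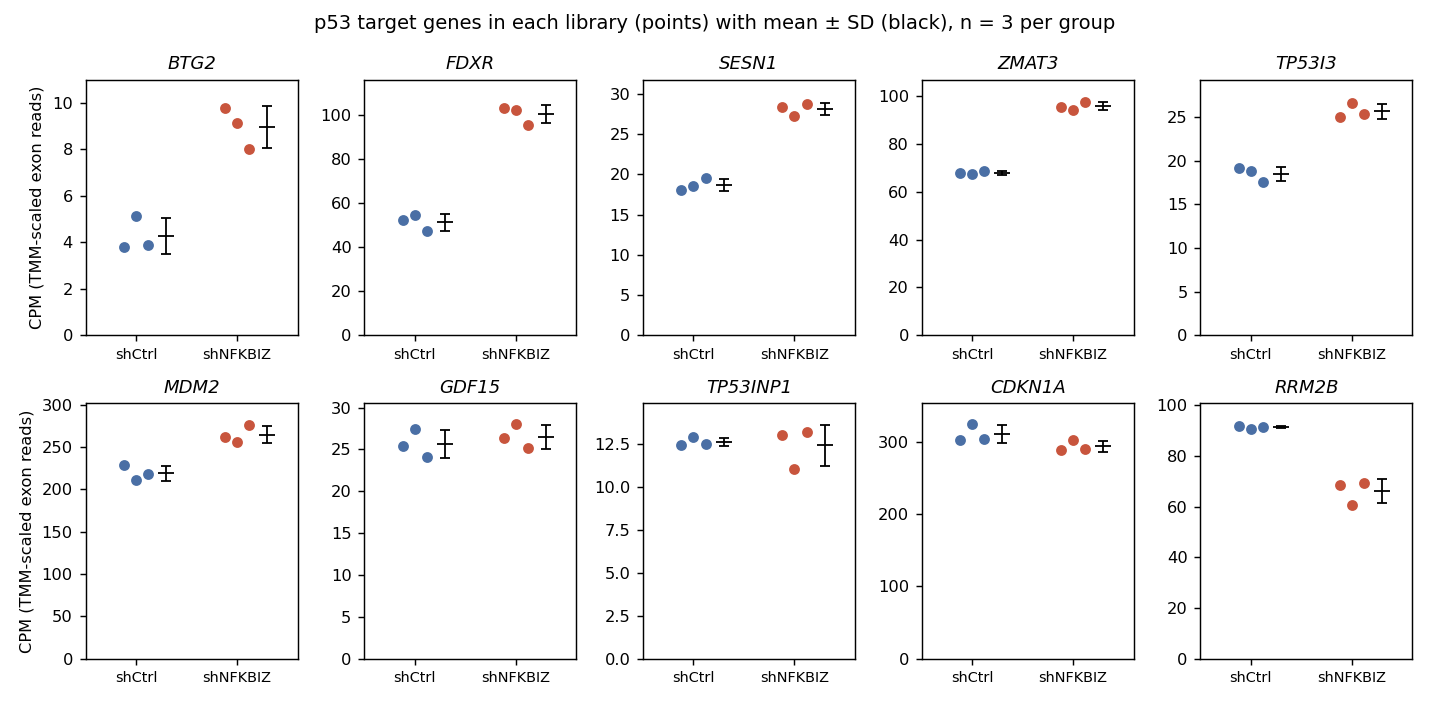
CPM (TMM-scaled exon reads relative to the library total, vertical axis from 0) of the 10 p53 target genes in each of the 3 shCtrl (blue) and 3 shNFKBIZ (red) libraries, with the mean and SD of each group in black. The shNFKBIZ libraries lie above all shCtrl libraries for BTG2, FDXR, SESN1, ZMAT3, TP53I3 and MDM2, below them for RRM2B and narrowly for CDKN1A, and the ranges of both groups overlap for GDF15 and TP53INP1.

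The feedback arm of the pathway was examined first. MDM2 (ENSG00000135679, chromosome 12, 68808177 to 68845544, plus strand, hg38), the ubiquitin ligase that marks p53 for degradation, had 228, 211 and 218 CPM in the shCtrl libraries and 262, 256 and 276 CPM in the shNFKBIZ libraries. All 3 shNFKBIZ libraries were above the highest shCtrl library (log2 fold change 0.27, SE 0.0380, adjusted P 1.81e-06). Per length, MDM2 was among the more abundant of these genes, with 98.5 ± 4.15 TPM in shCtrl and 126 ± 3.59 TPM in shNFKBIZ (SD, n = 3).

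Among the genes of cell cycle arrest, BTG2 rose and CDKN1A did not pass the test. CDKN1A (ENSG00000124762, chromosome 6, 36676460 to 36687337, plus strand) encodes p21, the inhibitor of cyclin-dependent kinases through which p53 halts the cell cycle. It had the highest level per length of the 10 genes, with 387 ± 12.9 TPM in shCtrl and 388 ± 16.7 TPM in shNFKBIZ (SD, n = 3). TPM carry no TMM factors. With these, CDKN1A had 303, 325 and 303 CPM in the shCtrl libraries and 289, 303 and 290.4 CPM in the shNFKBIZ libraries. The nearest libraries of both groups lay 0.294 CPM apart, and the difference missed the threshold (log2 fold change -0.078, SE 0.0360, adjusted P 0.0621), with a 95% confidence interval of -0.15 to -0.0033 for the log2 fold change. This small value depended on the settings. It passed the threshold with unique exon reads (adjusted P 0.0464), with total gene reads (adjusted P 0.0323), in a fit with a replicate block (adjusted P 0.0232) and without shCtrl replicate 1 (adjusted P 0.0485), shCtrl replicate 3 (adjusted P 0.0387) or shNFKBIZ replicate 2 (adjusted P 0.0246). With library size alone it was 0.012 (adjusted P 0.786). The lower bound of the interval corresponds to a 1.11-fold lower level.

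BTG2 (ENSG00000159388, chromosome 1, 203305491 to 203309602, plus strand), an antiproliferative factor that recruits the mRNA deadenylation machinery, was the least abundant of the 10 genes in CPM, with 3.78, 5.14 and 3.86 CPM in the shCtrl libraries and 9.76, 9.10 and 7.99 CPM in the shNFKBIZ libraries. The lowest shNFKBIZ library was 1.55 times the highest shCtrl library (log2 fold change 1.07, SE 0.125, adjusted P 1.46e-07). Behind these values stood 87, 122 and 85 reads in shCtrl against 224, 211 and 186 in shNFKBIZ. BTG2 was the only one of the 10 genes past a 2-fold change, and its log2 fold change ranged from 0.98 to 1.23 when 1 library was left out, so that it fell short of 2-fold without shCtrl replicate 1 or shNFKBIZ replicate 1.

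Both genes of redox and mitochondrial electron transfer rose. FDXR (ENSG00000161513, chromosome 17, 74862497 to 74873031, minus strand), ferredoxin reductase, passes electrons to the mitochondrial ferredoxins for steroid and iron-sulfur cluster synthesis. It had 52.1, 54.7 and 47.1 CPM in the shCtrl libraries and 103, 103 and 95.6 CPM in the shNFKBIZ libraries, and the lowest shNFKBIZ library was 1.75 times the highest shCtrl library (log2 fold change 0.97, SE 0.0508, adjusted P 8.20e-13). Its change was just inside 2-fold, at 1.96-fold, and passed 2-fold with library size alone (log2 fold change 1.06), without shCtrl replicate 2 (1.02) and without shNFKBIZ replicate 3 (1.001). TP53I3 (ENSG00000115129, chromosome 2, 24077433 to 24085861, minus strand), a quinone oxidoreductase also known as PIG3, had 19.2, 18.8 and 17.6 CPM in the shCtrl libraries and 25.1, 26.7 and 25.3 CPM in the shNFKBIZ libraries, with no overlap between the groups (log2 fold change 0.47, SE 0.0623, adjusted P 8.78e-07). It lies within FAM228B on the other strand, and strand was not used in the counting. FAM228B held 0.277 times as many gene reads as TP53I3 and had a log2 fold change of 0.33, which did not pass the test. A share of the reads could thus be assigned to either gene.

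SESN1 (ENSG00000080546, chromosome 6, 108984309 to 109094846, minus strand), a sestrin that restrains mTORC1 signaling, had 18.03, 18.5 and 19.5 CPM in the shCtrl libraries and 28.4, 27.3 and 28.7 CPM in the shNFKBIZ libraries. The values within each group were close, and the groups were far apart in comparison (log2 fold change 0.59, SE 0.0604, adjusted P 1.94e-08). ZMAT3 (ENSG00000172667, chromosome 3, 178960121 to 179072215, minus strand), a zinc finger protein that binds RNA and takes part in splicing, had 67.7, 67.2 and 68.6 CPM in the shCtrl libraries and 95.6, 94.1 and 97.4 CPM in the shNFKBIZ libraries. All shNFKBIZ libraries were above all shCtrl libraries (log2 fold change 0.50, SE 0.0396, adjusted P 3.30e-10).

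RRM2B (ENSG00000048392, chromosome 8, 102204502 to 102238961, minus strand) encodes the p53-inducible subunit of ribonucleotide reductase, which supplies nucleotides for DNA repair and for mitochondrial DNA. It was the only one of the 10 genes called lower, with 91.7, 90.8 and 91.4 CPM in the shCtrl libraries and 68.4, 60.6 and 69.3 CPM in the shNFKBIZ libraries. All shNFKBIZ libraries were below the shCtrl libraries (log2 fold change -0.47, SE 0.0470, adjusted P 1.51e-08).

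For GDF15 and TP53INP1 the groups overlapped. GDF15 (ENSG00000130513, chromosome 19, 18374731 to 18389176, plus strand), a secreted stress cytokine of the TGF-β superfamily, had 25.5, 27.4 and 24.1 CPM in the shCtrl libraries and 26.3, 28.04 and 25.1 CPM in the shNFKBIZ libraries, and each group held values inside the range of the other (log2 fold change 0.045, SE 0.0628, adjusted P 0.546). The 95% confidence interval of its log2 fold change was -0.086 to 0.18. TP53INP1 (ENSG00000164938, chromosome 8, 94925972 to 94949378, minus strand), which acts in autophagy and in the proapoptotic response, had 12.4, 12.9 and 12.5 CPM in the shCtrl libraries and 13.03, 11.04 and 13.2 CPM in the shNFKBIZ libraries (log2 fold change -0.022, SE 0.0841, adjusted P 0.833), with an interval of -0.20 to 0.15. It lies within NDUFAF6 on the other strand, which held 2.43 times as many gene reads and had a log2 fold change of 0.57. The part of this overlap in the TP53INP1 value was not tested.

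**Figure D2:**
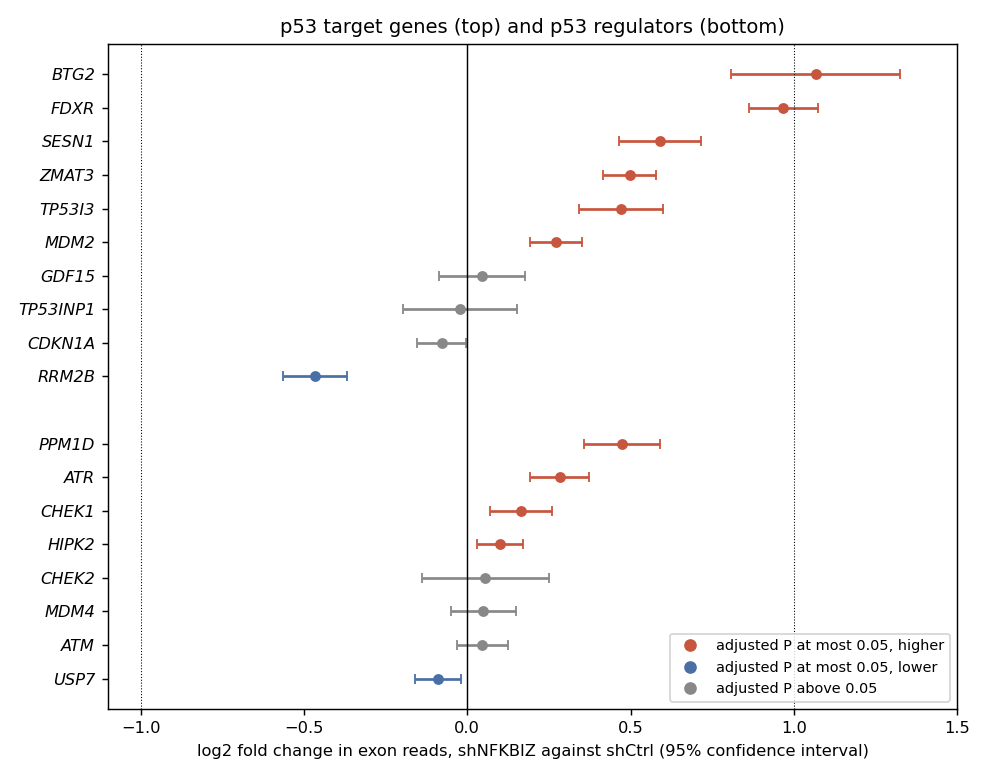
Log2 fold change in exon reads (horizontal axis, shNFKBIZ against shCtrl, with 95% confidence intervals) of the 10 p53 target genes and of the 8 p53 regulators that could be tested, where red marks genes called higher, blue genes called lower and grey the others, and dotted lines mark 2-fold. BTG2 lies beyond the 2-fold line and FDXR just inside it, and among the regulators PPM1D has the largest change at 0.47.

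To see whether the regulators of the pathway changed as well, 11 of them were looked up. MDM4, the relative of MDM2 that blocks the activation domain of p53, had 47.96, 50.03 and 52.1 CPM in the shCtrl libraries and 50.5, 51.5 and 53.1 CPM in the shNFKBIZ libraries (log2 fold change 0.048, SE 0.0477, adjusted P 0.385). With library size alone its log2 fold change was 0.14 (adjusted P 0.0180). CDKN2A, whose product ARF restrains MDM2, had 0 exon reads in every library. TP63 and TP73, members of the p53 family, had too few reads to be tested. Of the 8 regulators tested, 4 were called higher (PPM1D, ATR, CHEK1 and HIPK2) and 1, USP7, lower, against 32.5% higher and 32.8% lower of all genes tested, and 0 reached 2-fold (3.84% higher and 5.12% lower of all genes). The USP7 call (log2 fold change -0.089, SE 0.0341, adjusted P 0.0271) was lost with library size alone and without shCtrl replicate 1 or shNFKBIZ replicate 1. PPM1D, a phosphatase that dampens p53 signaling and is itself a p53 target, had 28.6, 27.3 and 29.5 CPM in the shCtrl libraries and 41.7, 38.6 and 38.3 CPM in the shNFKBIZ libraries (log2 fold change 0.47, SE 0.0556, adjusted P 1.50e-07). Apart from PPM1D, the log2 fold changes of the regulators lay between -0.089 (USP7) and 0.28 (ATR).

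A wider list of 36 further p53 target genes was also examined. Of 33 tested, 16 were called higher and 9 lower, 2 of them beyond 2-fold in each direction, and the median log2 fold change was 0.11. The shares over all genes tested were 32.5% higher and 32.8% lower, and 3.84% and 5.12% beyond 2-fold. This list covers apoptosis, repair and metabolism, and its members moved in both directions. The largest rises were those of ACER2, an alkaline ceramidase, with 4.91, 4.80 and 5.18 CPM in the shCtrl libraries and 11.99, 12.3 and 11.6 CPM in the shNFKBIZ libraries (log2 fold change 1.27, SE 0.0948, adjusted P 1.10e-10), and of PIDD1, the scaffold of the PIDDosome (log2 fold change 1.04, SE 0.0922, adjusted P 1.47e-07). The PIDD1 value ranged from 0.83 to 1.13 over the alternative settings, so that it did not reach 2-fold in each of them. PLK2, a polo-like kinase, had 285, 288 and 278 CPM in the shCtrl libraries and 86.5, 87.9 and 87.1 CPM in the shNFKBIZ libraries (log2 fold change -1.70, SE 0.0357, adjusted P 5.01e-20), the largest fall. TIGAR, a fructose bisphosphatase that lowers glycolytic flux, also fell (log2 fold change -1.12, SE 0.0541, adjusted P 6.44e-14). The TIGAR value is uncertain, since 14.8% of its exon reads mapped to a single place, and these alone gave a log2 fold change of -0.72. The difference between this list and the 10 genes was not tested.

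The relatives of the 10 genes were set beside them, since they share functions without being classical p53 targets in each case. SESN2, a sestrin that p53 and ATF4 induce, rose (log2 fold change 0.50, SE 0.0669, adjusted P 7.92e-06), and SESN3, which FOXO factors induce, fell from 8.04, 7.84 and 7.09 CPM to 2.31, 2.37 and 2.41 CPM (log2 fold change -1.69, SE 0.126, adjusted P 1.04e-10). BTG1, the relative of BTG2, fell (log2 fold change -0.79, SE 0.0518, adjusted P 6.70e-09), so that the BTG2 and BTG1 changes had opposite signs. CDKN1B, which encodes the inhibitor p27, had 43.97, 41.3 and 43.9 CPM in the shCtrl libraries and 42.3, 41.8 and 41.02 CPM in the shNFKBIZ libraries (log2 fold change -0.046, SE 0.0491, adjusted P 0.425). RRM2, the subunit of ribonucleotide reductase used in S phase, rose by a small amount (log2 fold change 0.17, SE 0.0337, adjusted P 1.12e-04), opposite to RRM2B, and missed the threshold in exon-exon reads (log2 fold change 0.07, adjusted P 0.102). CCND1, cyclin D1, whose complexes with CDK4 bind p21, had 634, 585 and 622 CPM in the shCtrl libraries and 1397, 1346 and 1372 CPM in the shNFKBIZ libraries (log2 fold change 1.16, SE 0.0353, adjusted P 2.24e-17). Of the 15 relatives and partners tested, 8 were called higher and 3 lower (all genes 32.5% and 32.8%).

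Genes that p53 represses through p21 and the DREAM complex act in S phase and mitosis. Of 16 tested, 10 were called lower (32.8% of all genes) and 4 higher (32.5% of all genes), and the median log2 fold change was -0.21. Of these, 0 reached 2-fold, against 3.84% higher and 5.12% lower of all genes. Their log2 fold changes ranged from -0.69 (CCNB2) to 0.59 (CDC25A). GDF15 and SESN2 are also targets of ATF4, and 7 of the 8 genes looked up for the integrated stress response were called lower and 1 higher, against the same shares of all genes. Their median log2 fold change was -0.82. Beyond 2-fold, 4 of the 8 were lower and 0 higher, against 5.12% and 3.84% of all genes. These falls were those of DDIT4 (-2.14), CHAC1 (-2.14), ASNS (-1.23) and ATF3 (-1.03), given as log2 fold changes. The ATF3 value ranged from -1.05 to -0.80 over the alternative settings, so that it did not reach 2-fold in each of them. For ASNS 2.07% of the exon reads mapped to a single place. The part of these lists in the changes of the 10 genes was not tested.

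**Figure D3:**
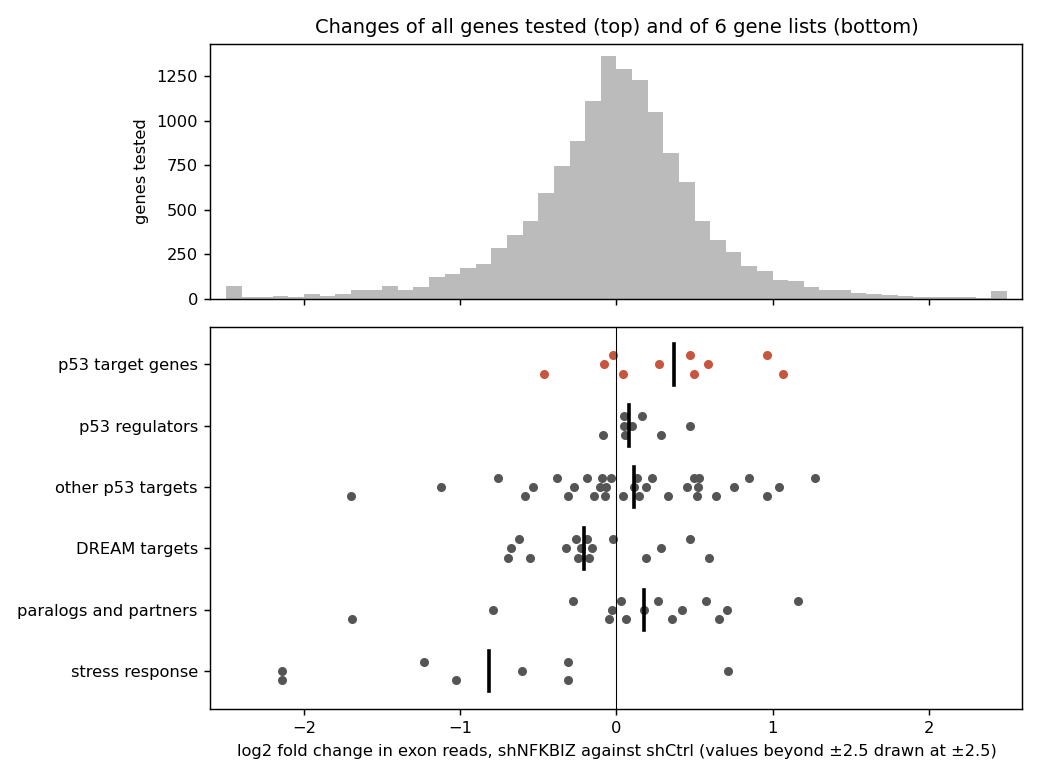
Log2 fold change in exon reads (horizontal axis, shNFKBIZ against shCtrl) of all 13843 genes tested as a histogram (top, number of genes in bins of 0.1) and of the tested genes of 6 lists as points with the median as a black bar (bottom). The median of the 10 p53 target genes lies at 0.37, that of the further p53 targets at 0.11, that of the DREAM targets at -0.21 and that of the stress response genes at -0.82.

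Reads within introns, which come mostly from unspliced RNA, and reads that cross exon-exon borders, which come from spliced RNA, gave further readouts of the same genes. Intron reads made up 7.16% to 7.46% of the gene reads in the shCtrl libraries and 7.63% to 8.15% in the shNFKBIZ libraries, and the part of this difference in the results was not tested. On intron reads 9 of the 10 genes could be tested, since BTG2 had at most 3 intron reads per library. FDXR and MDM2 were called higher, which is 2 of 9 against a background of 19.3% of 12119 genes, and CDKN1A was called lower, which is 1 of 9 against a background of 19.5%. FDXR had 96, 105 and 79 intron reads in shCtrl and 199, 203 and 183 in shNFKBIZ, with no overlap, a change of 0.97 ± 0.111 on the log2 scale (± SE, adjusted P 5.03e-09). The difference of the exon change from this value was 0.0071 (95% confidence interval -0.22 to 0.24). MDM2 had 245, 223 and 257 intron reads in the control libraries against 330, 394 and 313 after knockdown, a change of 0.42 ± 0.0863 on the same scale (adjusted P 1.45e-04). For CDKN1A the counts were 298, 374 and 302 in the control libraries against 289, 318 and 297 after knockdown, a change of -0.20 ± 0.0799 (adjusted P 0.0481). That call was lost without shCtrl replicate 2 (adjusted P 0.298) and without any one of shNFKBIZ replicates 1 (adjusted P 0.122), 2 (adjusted P 0.0748) and 3 (adjusted P 0.107).

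SESN1 and ZMAT3 differed between exon and intron reads. SESN1 had 63, 64 and 64 intron reads in shCtrl and 54, 52 and 56 in shNFKBIZ, and the intron change of -0.33 did not pass the test (adjusted P 0.0953). The exon change exceeded the intron change by 0.93 on the log2 scale (SE 0.166, adjusted P 3.59e-06, edgeR interaction test). For ZMAT3 the excess was 0.43 (SE 0.121, adjusted P 0.00407), with 129, 104 and 111 intron reads in the control libraries against 115, 152 and 121 after knockdown, and it missed the threshold without shCtrl replicate 1 (0.33, adjusted P 0.0787). Thus 2 of 9 genes had an exon change above the intron change, where the background was 13.1% of 11025 genes, and 0 of 9 had one below it (background 15.7%), with 1, GDF15, at an unadjusted P under 0.05. SESN2, a relative of SESN1, also had an excess of the exon change of 1.06 (SE 0.138, adjusted P 5.15e-10). Of the 11 relatives and partners tested in this way, 2 had an exon change above the intron change and 3 one below it. The shares over all genes were 13.1% and 15.7%. For TP53INP1 neither the intron change nor the excess of the exon change passed the test. When 1 library was left out, they ranged from -1.25 to -0.43 and from 0.50 to 1.22.

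Exon-exon reads could be tested for 8 of the 10 genes. Of all 10622 genes tested on these reads, 2871 were called higher and 2963 lower. SESN1 (log2 fold change 0.73), TP53I3 (0.67), MDM2 (0.39) and FDXR (0.97) were called higher and RRM2B (-0.42) lower, as in exon reads. ZMAT3 was the exception. Its exon-exon counts were 81, 100 and 100 in the control libraries against 105, 102 and 90 after knockdown, a change of 0.11 ± 0.129 on the log2 scale (± SE, adjusted P 0.495), against 0.50 in all exon reads. The exons of ZMAT3 span 11298 bases, the most of the 10 genes. The ZMAT3 call was thus made in all exon reads and not in the exon-exon reads.

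**Figure D4:**
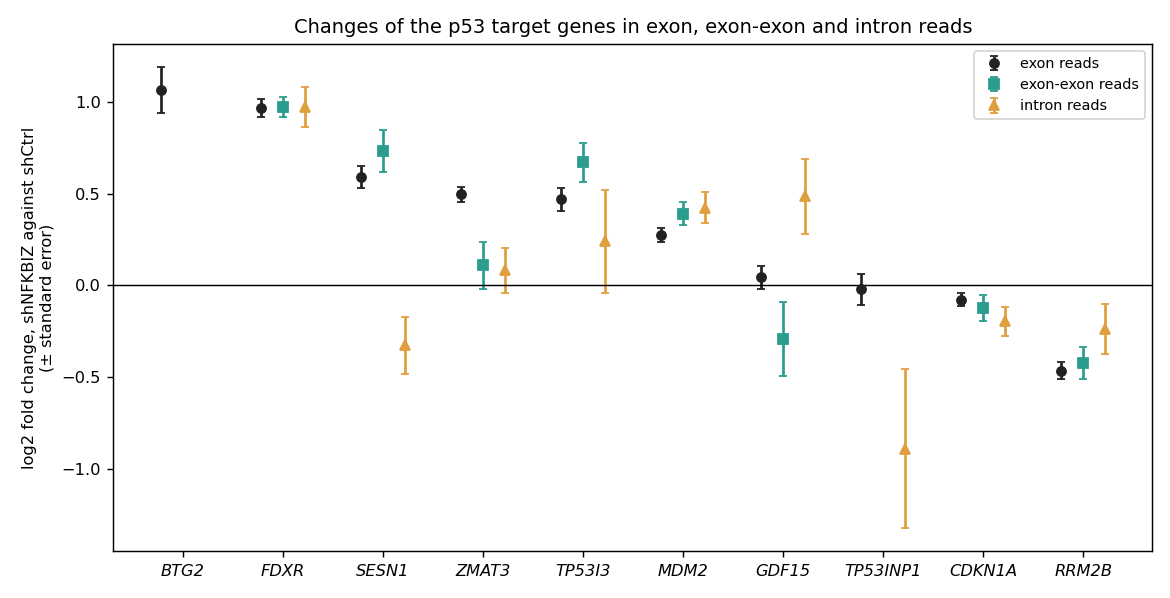
Log2 fold change (vertical axis, shNFKBIZ against shCtrl, bars are ± 1 standard error) of each p53 target gene in exon reads (black circles), exon-exon reads (green squares) and intron reads (orange triangles), with no symbol where a gene could not be tested. The FDXR symbols coincide near 0.97, those of SESN1 lie at 0.59, 0.73 and -0.33, and that of ZMAT3 in exon reads lies above its other values.

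The presence of a p53 response element was also set against the change of all genes. Of the genes tested, 159 had a match in at least one promoter window, and 40.9% of these were called higher and 32.7% lower. Among the 10085 tested genes whose windows held no match, 33.6% were called higher and 34.7% lower. The median log2 fold change was 0.045 with a match and 0.0004 without. The 4 target genes with a match were counted among the 159, and the difference between genes with and without a match was not tested. Of the 4 target genes with a match, MDM2, SESN1 and FDXR rose and GDF15 did not pass the test. Of the 4 with a window and no match, BTG2, TP53I3 and ZMAT3 rose and CDKN1A did not pass.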

How the data were processed

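RNA-seq libraries of shCtrl and shNFKBIZ LOX-IMVI cells (n = 3 per group, grouped by sample title) were analysed. Per the study's methods, the authors mapped reads to hg38 with CLC Genomics Workbench without regard to strand, counted a pair once, and deposited whole-number counts of total and unique exon, intron, gene and exon-exon reads for each gene. TPM were computed anew from the exon reads and the exon length of each gene. The deposited TPM served only to check these, and the deposited RPKM were not used.

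Total exon reads were filtered with filterByExpr, scaled with TMM factors and tested by edgeR 4.0.16 (quasi-likelihood) in R 4.3.3 (robust, two-sided, Benjamini-Hochberg over the 13843 genes tested, threshold 0.05). The SE is the log2 fold change divided by the square root of F. Intron reads were tested likewise (12119 genes), and the exon minus intron change as an interaction with library blocks (11025 genes). The scripts were tested on simulated data. Alternatives are given in the closing section, DESeq2 1.42.0 among them. The target genes and gene lists were chosen with earlier results of these data known. Named were all 10 target genes, NFKBIZ, MDM4 and CDKN2A, list genes past 2-fold and 5 relatives, and 1 further gene of the rule is not reported here. Regulators called, the extremes of a list, SOX10 and MLANA were named after their values were seen. P values judge the difference between the groups against the variation among the 3 libraries of each group, and the labels do not say what separates these libraries.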

Additional observations from a re-analysis of the deposited data

How the results depend on the processing

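Exon results were refitted under each alternative that could be run (RLE factors, library size alone, 10 reads in every library, no filter, DESeq2, unique exon reads, total gene reads, exon-exon reads, a replicate block, and leaving out each library), and intron and exon minus intron results with unique reads, RLE factors and leaving out each library. Of 44 gene results, 32 kept their direction and their side of the threshold in every alternative run for them. The number of target genes called higher was 6 throughout, except 4 in exon-exon reads, where BTG2 and TP53INP1 could not be tested and ZMAT3 did not pass the test. The background moved between these settings. Of all 13843 genes tested, 4496 were called higher and 4543 lower in the main fit. With library size alone these counts were 5659 and 3651, and with DESeq2 3861 and 4073. In exon-exon reads they were 2871 and 2963 of 10622. The number of target genes called lower was 2, with CDKN1A added, for unique exon reads, total gene reads and the replicate block, and 1 to 2 when 1 library was left out. The number past 2-fold was 2 with library size alone, 0 in exon-exon reads and 0 to 2 when 1 library was left out. The regulators called higher were 6 with library size alone, 3 in exon-exon reads and 3 to 4 when 1 library was left out. The regulators called lower were 0 with library size alone and 0 to 1 when 1 library was left out. On intron reads the number called lower was 0 to 1, and the number of genes that differed between exon and intron change 1 to 2, when 1 library was left out. Each value that changed sign had not passed its test. With library size alone, these were log2 fold changes of CDKN1A (0.012), TP53INP1 (0.067) and CDKN1B (0.044), and in exon-exon reads those of GDF15 (-0.29) and MDM4 (-0.011). When 1 library was left out, TP53INP1 ranged from -0.068 to 0.056, the intron change of TP53I3 from -0.011 to 0.42, that of ZMAT3 from -0.020 to 0.17, and the exon minus intron change of FDXR from -0.010 to 0.045. The cause was not tested. Library size alone moved the median of all genes to 0.094. Same-numbered libraries of both groups deviated with correlations of 0.0207, 0.0561 and 0.0288, and each shCtrl library correlated best with the shNFKBIZ library of its own number, but the labels do not say that a number marks a shared experiment. In the replicate block CDKN1A was called lower (log2 fold change -0.078, adjusted P 0.0232). Depth limits BTG2 on intron and exon-exon reads and TP53INP1 on exon-exon reads.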
